A study of Bos taurus with 43 samples.

Results

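SPP1 (identifier ENSBTAG00000005260) and LTF (identifier ENSBTAG00000001292), the genes of 2 proteins secreted into the uterine lumen, were followed in endometrial luminal samples of 43 cows. They are 2 of the 27570 identifiers in each deposited count table, chosen by identifier, and both passed the low-count filter that left 15206 genes for testing. The tables hold identifiers without symbols, so the pairing of each identifier with its symbol comes from the selection and not from the tables. Multiparous Angus x Brahman cows were synchronized with an intravaginal progesterone device, a GnRH analogue and a PGF2alpha analogue in 2 rounds, called block 2 and block 1 here. The last GnRH dose marked day 0, the lumen was sampled with a cytology brush and blood was drawn on day 4, and an in vitro-produced embryo was placed on day 7. By the check around day 30, 25 cows were pregnant (14 in block 2 and 11 in block 1) and 18 were nonpregnant (8 in block 2 and 10 in block 1). All cows had shown estrus and all received the same treatment, so the groups differ in later outcome, in round and in blood progesterone (P4, in a unit that the labels do not give). P4 went with outcome, at a median of 0.86 in pregnant and 0.51 in nonpregnant cows. Differences by outcome and by P4 therefore cannot be fully told apart. The study asks how the luminal transcriptome before transfer relates to that outcome.

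SPP1 encodes osteopontin, a secreted phosphoprotein that binds integrins and CD44. In sheep and pigs it is a well-known product of the uterine epithelium, made under progesterone in the glands of the ewe, and it takes part in the attachment of the conceptus to the uterine surface. LTF encodes lactoferrin, an iron-binding glycoprotein of milk and mucosal secretions that limits bacterial growth and is also stored in the granules of neutrophils. In the mouse uterus lactoferrin is a classical estrogen-responsive secretion. Macrophages also make osteopontin. In a bulk sample, fewer cells of a type and less RNA per cell cannot be told apart, and the marker lists of epithelium, stroma and leukocytes could not be matched to identifiers, so the cell makeup of the samples was not tested.

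Total counts ran from 11159501 to 23572549 per library (median 15544498), and both transcripts were well counted in every cow (at least 82 reads of SPP1 and 4297 of LTF). Between 16705 and 18842 genes had at least 1 count, and the 10 genes of most counts took 3.70% to 11.3% of a library. LTF was itself among those 10 genes in 35 of the 43 libraries and had the most counts of any gene in 10 of them. These ranks are by raw counts, not corrected for transcript length. Replicate numbers below only name the cows, and each cow is 1 sample.

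Both transcripts were present in every cow and differed widely between cows. SPP1 ranged from 4.30 to 299.5 CPM (counts scaled for library size with TMM factors) with a median of 58.4 CPM, a 69.7-fold span. Its lowest value was in nonpregnant replicate 18 of block 2, the cow with the highest P4 (1.88), and the next lowest, 10.2 CPM, was in nonpregnant replicate 13 of block 1 (P4 1.71). Its highest value was in nonpregnant replicate 3 of block 2 (P4 0.46), followed by 211 CPM in pregnant replicate 23 of block 2 (P4 1.24). Both ends of the SPP1 range thus lay in nonpregnant cows of the same block.

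LTF ranged from 379 to 27012 CPM with a median of 7350 CPM, a 71.2-fold span. The lowest LTF value was in pregnant replicate 3 of block 1, which was also the library with the fewest detected genes (16705), and the next, 984 CPM, was in nonpregnant replicate 12 of block 2. The highest was in pregnant replicate 14 of block 2, where LTF alone took 2.60% of all counts, followed by 20673 CPM in pregnant replicate 4 of block 2. Across cows LTF took between 0.0309% and 2.60% of a library, with a median of 0.743%. Here the extremes of the range both lay in pregnant cows.

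The spread of both genes was large beside that of other genes. The standard deviation of log2 CPM over the 43 cows was 1.26 for SPP1 and 1.28 for LTF, against a median of 0.45 over all tested genes. In each case 195 of the 200 genes nearest in mean level had a smaller standard deviation. Their median was 0.32 around SPP1 and 0.39 around LTF.

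**Figure D1:**
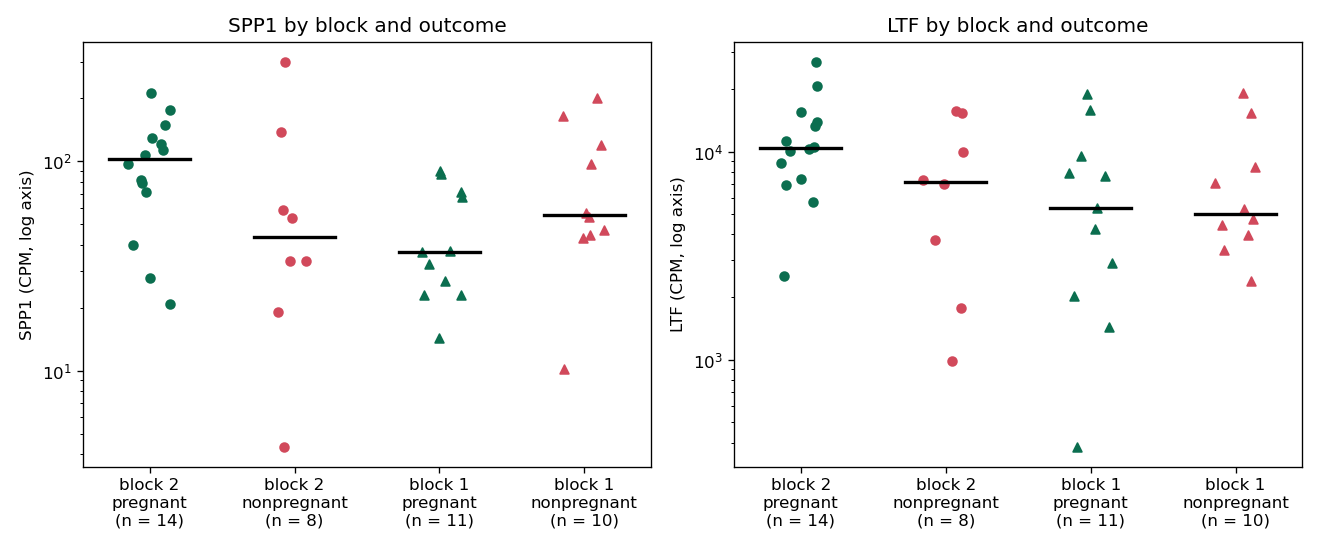
SPP1 (left) and LTF (right) in CPM on log axes, 1 point per cow, by block and outcome, with a black bar at the median of each group. The groups overlap for both genes, and the highest medians, 102.5 CPM for SPP1 and 10373 CPM for LTF, are in the 14 pregnant cows of block 2.

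The first comparison asked whether the day 4 level of either secretory transcript differed between cows that later were pregnant and cows that were not. Neither did past the threshold, and no gene of the 15206 tested did either (0% called by the quasi-likelihood test of edgeR, with block as a covariate and adjusted p under 0.05; 455 genes had an unadjusted p under 0.05, and DESeq2 and limma voom also called 0). SPP1 had a lowest, median and highest value of 14.3, 71.5 and 211 CPM in pregnant cows, against 4.30, 53.8 and 299.5 CPM in nonpregnant cows. The pregnant cows lay inside the range of the nonpregnant ones, and 15 of 25 pregnant and 6 of 18 nonpregnant cows were above the median of all cows. The pregnant cows averaged 77.4 ± 52.0 CPM and the nonpregnant cows 82.1 ± 76.7 CPM (SD, n = 25 and 18). The fitted log2 fold change of SPP1 was -0.28 ± 0.36 (SE; edgeR adjusted p = 1.00), with a 95% interval of 0.498-fold to 1.36-fold. The median of SPP1 was thus higher in pregnant cows while its mean and its fitted change were lower. Without nonpregnant replicate 3, the cow of highest SPP1, the fitted change was -0.02, and with log2 P4 in the model it was -0.11.

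LTF had a lowest, median and highest value of 379, 8806 and 27012 CPM in pregnant cows, against 984, 6135 and 19116 CPM in nonpregnant cows. As for SPP1, 15 of 25 pregnant and 6 of 18 nonpregnant cows were above the median of all cows, and the groups overlapped over almost their whole range. The pregnant cows averaged 9592 ± 6471 CPM and the nonpregnant cows 7550 ± 5423 CPM (SD, n = 25 and 18). The fitted log2 fold change was 0.24 ± 0.34 (SE; edgeR adjusted p = 1.00), with a 95% interval of 0.729-fold to 1.91-fold. With log2 P4 in the model it was 0.03. Permutation of log2 CPM within blocks found a difference of 0.22 for LTF (two-sided permutation p = 0.590) and of 0.13 for SPP1 (p = 0.743). That sign for SPP1 is opposite to the one from edgeR.

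The intervals of both genes were wide. Their half-widths on the log2 scale were 0.72 for SPP1 and 0.69 for LTF, against a median of 0.28 over all tested genes. A 2-fold change in either direction lay outside the interval of LTF, while that of SPP1 reached down to 0.498 of the nonpregnant level.

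Next, the 2 rounds of synchronization were compared, block 2 over block 1, with outcome in the model. Both medians were higher in block 2, but neither gene passed the threshold, where 0.414% of the 15206 genes did (63 genes, edgeR adjusted p under 0.05). SPP1 had a lowest, median and highest value of 4.30, 79.9 and 299.5 CPM in block 2, against 10.2, 46.8 and 201 CPM in block 1. Cows above 100 CPM numbered 9 of 22 in block 2 and 3 of 21 in block 1, and the ranges overlapped. The fitted change was 1.55-fold (log2 0.63 ± 0.36 SE; edgeR adjusted p = 0.407; 95% interval 0.942-fold to 2.56-fold). It was 0.40 on the log2 scale without nonpregnant replicate 3.

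LTF had a lowest, median and highest value of 984, 10031 and 27012 CPM in block 2, against 379, 5271 and 19116 CPM in block 1. Cows above 10000 CPM numbered 11 of 22 in block 2 and 4 of 21 in block 1. The medians differed 1.90-fold, and the fitted change was 1.38-fold (log2 0.47 ± 0.34 SE; edgeR adjusted p = 0.532; 95% interval 0.859-fold to 2.22-fold). LTF also moved with the number of detected genes (values below), and with that number in the model its block change was 0.34 on the log2 scale.

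When block and outcome were crossed, the pregnant cows of block 2 had the highest medians of both genes. In block 2 the SPP1 median was 102.5 CPM for pregnant and 43.6 CPM for nonpregnant cows, and in block 1 it was 36.8 CPM for pregnant and 55.2 CPM for nonpregnant cows. Of the 14 pregnant cows of block 2, 7 exceeded 100 CPM of SPP1, while none of the 11 pregnant cows of block 1 did (highest 90.4 CPM). Fitted within a block, the SPP1 outcome difference was 0.34 in block 2 and -0.85 in block 1 on the log2 scale. The difference between those, tested as an interaction, was 1.20 ± 0.68 (SE; edgeR adjusted p = 0.999; 95% interval -0.18 to 2.58), and 0% of genes passed it (506 at an unadjusted p under 0.05; 0 called by DESeq2 or limma voom). It was 2.02 in limma voom (adjusted p = 0.848, unadjusted p = 0.0041) and 1.78 without the 7 libraries described below (edgeR adjusted p = 0.695, unadjusted p = 0.0180, 36 cows). Among pregnant cows alone, SPP1 was 1.13 higher on the log2 scale in block 2 than in block 1 (edgeR adjusted p = 0.0899, 25 cows, unadjusted p = 0.00266), and among nonpregnant cows alone the value was -0.06. Of 15206 genes, 248 passed in the fit of pregnant cows and 0 in that of nonpregnant cows. This contrast of blocks within outcomes is the same interaction and is not a further test.

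The LTF median in block 2 was 10373 CPM for pregnant and 7140 CPM for nonpregnant cows, and in block 1 it was 5380 CPM for pregnant and 5009 CPM for nonpregnant cows. The outcome difference within a block was 0.60 in block 2 and -0.10 in block 1. The difference between them was 0.70 ± 0.68 (SE; edgeR adjusted p = 0.999), so neither gene passed for an outcome difference that depended on the round.

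**Figure D2:**
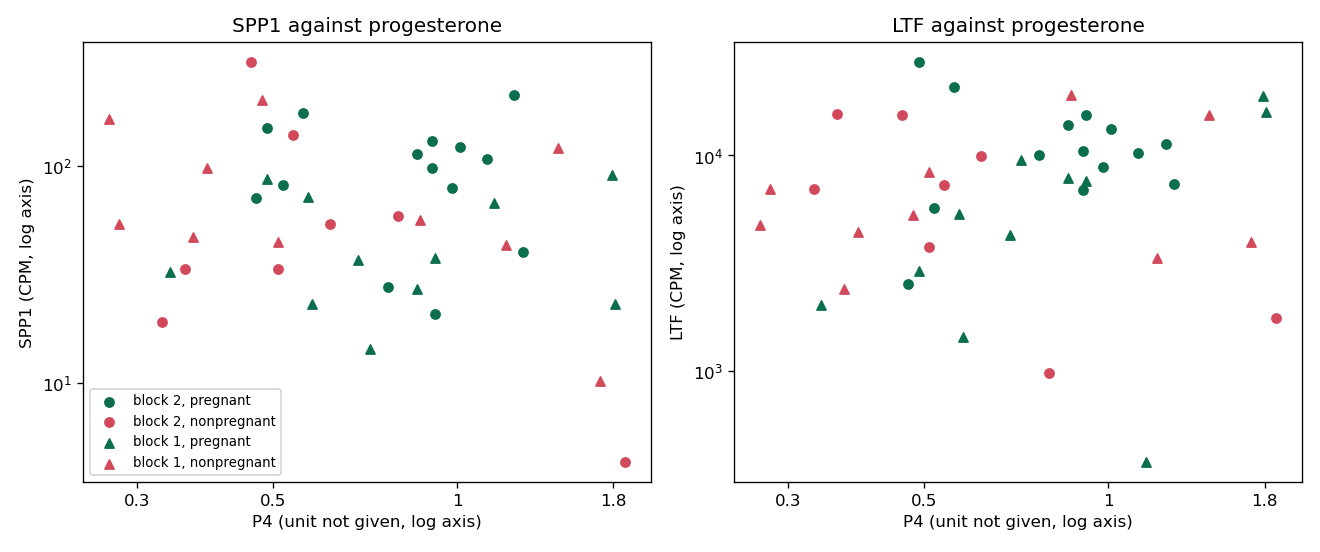
SPP1 (left) and LTF (right) in CPM against blood P4 on the day of sampling, all axes logarithmic, 1 point per cow, with colour for outcome and shape for block. SPP1 has its lowest values (4.30 and 10.2 CPM) in 2 of the cows of highest P4, and LTF has values from 2030 to 27012 CPM in the low P4 group of 14 cows.

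Expression was then set against P4, the hormone under which osteopontin is made in the ewe. The fitted slopes had opposite signs, lower SPP1 and higher LTF with more P4, and neither passed the threshold, where 0.513% of genes did (78 of 15206, edgeR with block in the model). Cows were ordered by P4 into a low group of 14 (0.27 to 0.51), a middle group of 15 (0.52 to 0.91) and a high group of 14 (0.92 to 1.88), in which the SPP1 medians were 62.6, 58.4 and 55.3 CPM. The ranges, 19.1 to 299.5, 14.3 to 175 and 4.30 to 211 CPM, overlapped. Per doubling of P4, the log2 slope of SPP1 was -0.29 ± 0.23 (SE; edgeR adjusted p = 0.540; 95% interval -0.75 to 0.16). It was -0.16 without the 2 cows of highest P4 and -0.48 without the 7 libraries described below (edgeR adjusted p = 0.748 and 0.440). Log2 CPM of SPP1 against log2 P4 gave Pearson r = -0.23 (permutation p = 0.134, adjusted p = 0.201 over 3 correlations) and Spearman rho = -0.14 (permutation p = 0.379, adjusted p = 0.379). Leaving out the 2 most distant cows from the P4 median gave r = -0.06, so that its size rested on those cows. It was -0.18 in block 2 and -0.32 in block 1.

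LTF had medians of 5009, 7872 and 9517 CPM in the low, middle and high P4 groups, with ranges of 2030 to 27012, 984 to 20673 and 379 to 18887 CPM. The medians were ordered as P4 was, while the groups overlapped throughout. The LTF slope was 0.31 ± 0.22 per doubling of P4 (SE; edgeR adjusted p = 0.494; 95% interval -0.13 to 0.75). Pearson r was 0.10 (permutation p = 0.534, adjusted p = 0.534 over 3 correlations) and Spearman rho 0.20 (permutation p = 0.187, adjusted p = 0.280), with r = 0.16 once those 2 cows were left out. By block, r was -0.19 in block 2 and 0.28 in block 1.

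The P4 slope of LTF had opposite signs in the rounds, at -0.37 ± 0.35 in block 2 and 0.61 ± 0.25 in block 1 (SE, edgeR, 22 and 21 cows). The difference, -0.98 ± 0.45 (SE; 95% interval -1.89 to -0.06), had an unadjusted p of 0.0370 and did not pass after adjustment over all genes (edgeR adjusted p = 0.585; 0% of genes passed, 8.48% had an unadjusted p under 0.05, and DESeq2 called 4 genes and limma voom 24, LTF not among them). With the number of detected genes in the model it was -0.71, and with the share of the 10 genes of most counts other than LTF it was -0.58 (unadjusted p = 0.234). The SPP1 slope was -0.21 ± 0.45 in block 2 and -0.33 ± 0.24 in block 1, a difference of 0.12 ± 0.51 (SE; edgeR adjusted p = 0.952). That difference was 0.88 with the share of the 10 genes of most counts other than LTF in the model, and 1.17 without the 7 libraries in which the 10 genes of most counts took over 8% (edgeR adjusted p = 0.866 and 0.999, unadjusted p = 0.114 and 0.0511). LTF was itself among those 10 genes in all 7 libraries, and 6 of the 7 had over 15000 CPM of it, so leaving them out also selects on LTF. Without them the LTF difference was -0.10 (edgeR unadjusted p = 0.850, 36 cows). With the share of all 10 genes in the model, a share that can hold LTF itself, it was -0.24 (edgeR unadjusted p = 0.583).

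By outcome, the SPP1 slope was 0.06 ± 0.27 in pregnant and -0.63 ± 0.41 in nonpregnant cows (SE, edgeR, 25 and 18 cows). The difference was 0.60 ± 0.50 in the fit of all cows (SE; edgeR adjusted p = 0.83), and 0% of genes passed (872 at an unadjusted p under 0.05; 0 called by DESeq2 or limma voom). The LTF slope was 0.64 ± 0.33 in pregnant and -0.05 ± 0.34 in nonpregnant cows, with a difference of 0.48 ± 0.47 (SE; edgeR adjusted p = 0.846). With the share of the 10 genes of most counts other than LTF in the model these differences were 0.71 for SPP1 and 0.53 for LTF. Without the 7 libraries named above they were 1.34 for SPP1 and 1.285 for LTF (edgeR adjusted p = 0.383 for each, unadjusted p = 0.0217 and 0.0219, 36 cows). In limma voom they were 0.74 for SPP1 and 1.21 for LTF (adjusted p = 0.614 and 0.386, unadjusted p = 0.219 and 0.0101). In the edgeR fit of all cows the unadjusted p was 0.234 for SPP1 and 0.313 for LTF. DESeq2 gave 0.59 for SPP1 and 0.46 for LTF (unadjusted p = 0.221 and 0.293). In the other alternatives run, neither difference had an unadjusted p under 0.05. As said above, leaving out those libraries also selects on LTF.

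**Figure D3:**
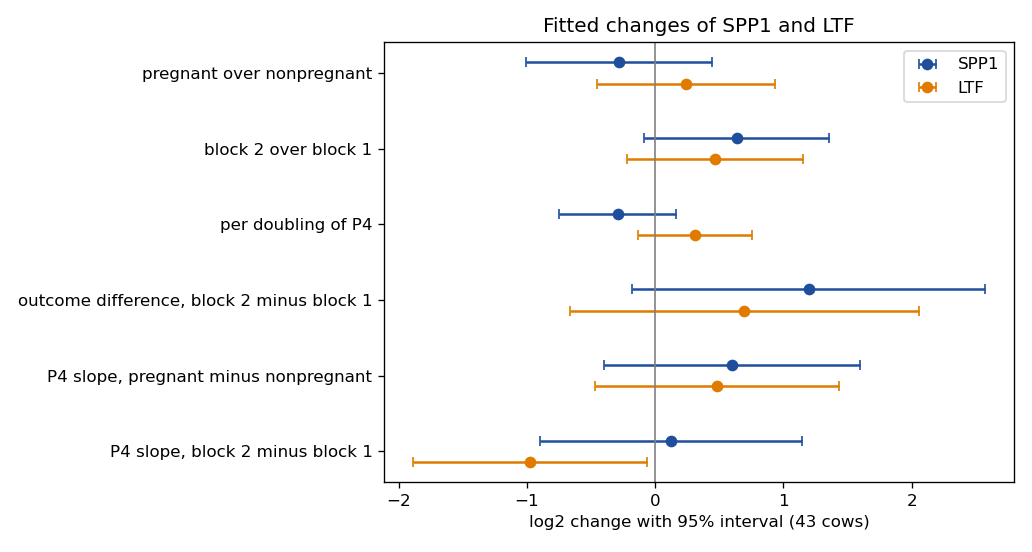
Fitted log2 changes of SPP1 and LTF with 95% intervals from edgeR's quasi-likelihood fits of 43 cows, for 3 contrasts and 3 differences between contrasts. The unadjusted intervals include 0 except that of the LTF slope in block 2 minus block 1 (-1.89 to -0.06), which did not pass after adjustment over all genes.

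The 2 secretory transcripts were also compared with each other. Of the 11 cows with most SPP1, 6 were among the 11 with most LTF, and none was among the 11 with least LTF. Of the 11 cows with least SPP1, 5 were among the 11 with least LTF and 2 among the 11 with most. Lists of this length would share some cows by chance, and the counts restate the correlation that follows. Log2 CPM of the genes gave Pearson r = 0.295 (permutation p = 0.0543, adjusted p = 0.163 over 3 correlations) and Spearman rho = 0.299 (permutation p = 0.0525, adjusted p = 0.157). The correlation was 0.20 with the 2 cows most distant from the SPP1 median left out. It was 0.47 in block 2 (permutation p = 0.0303, adjusted p = 0.0908) and 0.04 in block 1 (permutation p = 0.865, adjusted p = 0.865). By outcome, r was 0.23 in pregnant and 0.38 in nonpregnant cows. Both values of a cow come from 1 library, and the trend did not pass after adjustment in any of these sets of cows.

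**Figure D4:**
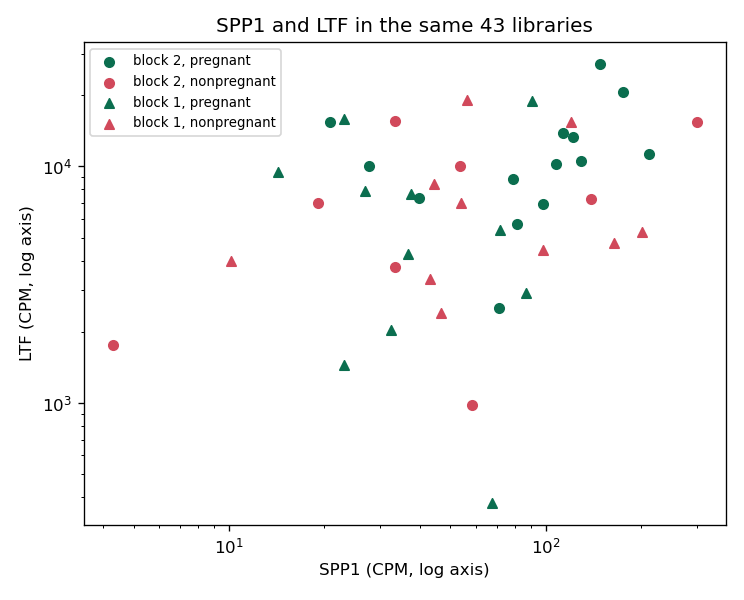
LTF against SPP1 in CPM, both axes logarithmic, 1 point per cow, with colour for outcome and shape for block. Points spread widely around a weak upward trend (Pearson r = 0.295 on log2 CPM), and pregnant replicate 3 of block 1 lies lowest in LTF (379 CPM) at a mid-range SPP1 value of 67.6 CPM.

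The genes most like each transcript were sought by Pearson correlation of log2 CPM over the 43 cows, among 14323 other genes with a mean log2 CPM of at least 0. The values are descriptive, since all genes of a cow share a library. LTF had more close companions than SPP1, with 266 genes at r of 0.7 or more and 58 at -0.7 or less, whereas SPP1 had 4 and 1. How many a typical gene has was not counted. These counts rest on Pearson r and include pregnant replicate 3 of block 1, the cow of lowest LTF. The median r over all genes was -0.01 for LTF and -0.02 for SPP1. For LTF the highest were ENSBTAG00000014456 (r = 0.87, from 1.32 to 95.9 CPM across cows) and ENSBTAG00000001136 (r = 0.85, from 9.18 to 223 CPM). The lowest for LTF were ENSBTAG00000013152 (r = -0.78) and ENSBTAG00000005904 (r = -0.78). For SPP1 the highest were ENSBTAG00000000604 (r = 0.78, from 3.20 to 75.8 CPM) and ENSBTAG00000007275 (r = 0.75, from 2.57 to 24.6 CPM), and the lowest were ENSBTAG00000024407 (r = -0.72) and ENSBTAG00000012341 (r = -0.70). The 10 genes most like SPP1 and the 10 most like LTF had 0 in common. Lists this short out of 14323 genes would seldom share a gene by chance, so this does not set them apart. The 10 most like SPP1 had r from 0.09 to 0.70 with LTF. The 10 most like LTF had r from 0.35 to 0.53 with SPP1. LTF stood at position 2651 among the genes ordered by their correlation with SPP1, and SPP1 at position 3521 in the order for LTF.

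**Figure D5:**
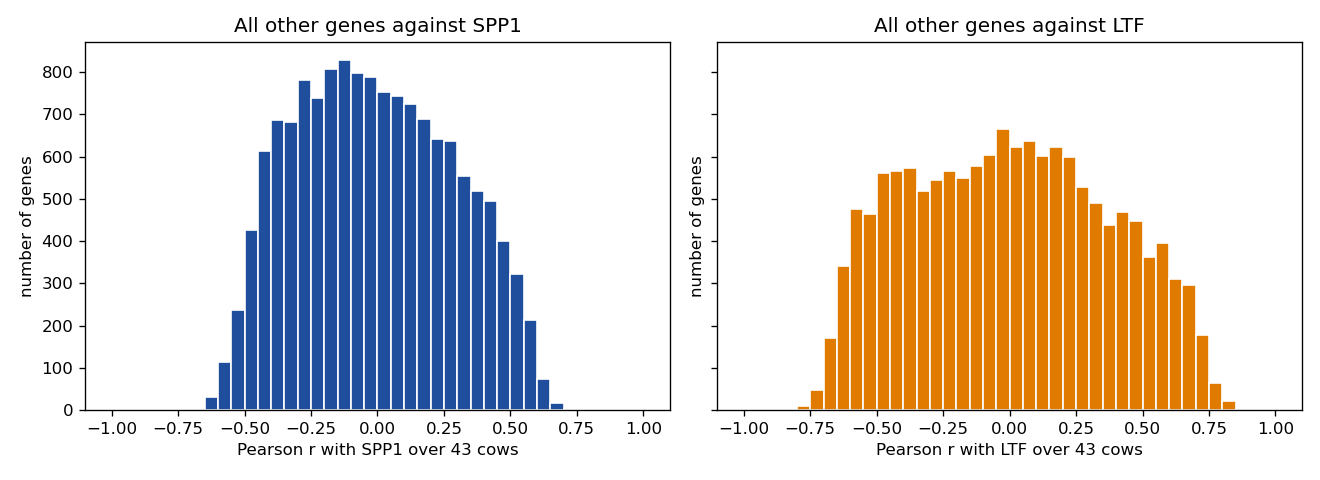
Number of genes by Pearson r with SPP1 (left) and with LTF (right) over 43 cows, in bins of 0.05, for 14323 genes each. The distribution for LTF is wider at both ends, with 266 genes at 0.7 or more against 4 for SPP1.

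Of the measures of the library itself, LTF followed the number of detected genes (Pearson r = 0.49, permutation p = 0.00113, adjusted p = 0.00603 over 16 relations; Spearman rho = 0.32, permutation p = 0.0402, adjusted p = 0.161). That relation was 0.27 once the 2 libraries most distant from the median number of genes were left out, -0.05 in block 2 and 0.73 in block 1, so it did not hold in both rounds and rested in part on those libraries. SPP1 had r = 0.14 with the same number (permutation p = 0.372, adjusted p = 0.602). SPP1 had r = 0.34 with the share of the 10 genes of most counts other than LTF (permutation p = 0.0278, adjusted p = 0.0889; Spearman rho = 0.15, permutation p = 0.337, adjusted p = 0.581), and r = 0.18 once the 2 libraries most distant from the median share were left out. LTF had r = 0.32 with that share (permutation p = 0.0352, adjusted p = 0.0940; rho = 0.23, permutation p = 0.132, adjusted p = 0.395). Total counts had r = 0.03 with SPP1 and 0.04 with LTF (permutation p = 0.831 and 0.783). With detected genes in the model the outcome change was 0.42 for LTF and -0.24 for SPP1 on the log2 scale, neither past the threshold (edgeR adjusted p = 1.00 for each).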

How the data were processed

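Poly-A libraries of 43 cows were sequenced with a NovaSeq instrument, as the labels' protocols state. The authors deposited 1 table of raw read counts per library. The submitters' processing notes list HISAT2, HTSeq, Trim Galore 0.4.4, FastQC 0.11.7 and build ARS-UCD1.2. Settings and annotation version were not given in the sources used here, so how reads of overlapping genes were counted is not known. The RefSeq symbol table (ARS-UCD2.0) matched 0 identifiers, so the gene lists could not be tested and no coordinates or sequences are given.

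Genes were filtered with filterByExpr (minimum count 10), scaled by TMM and fitted over all genes with edgeR 4.0.16 (R 4.3.3, robust quasi-likelihood F-test, Benjamini-Hochberg, threshold 0.05). Outcome was fitted with block, and log2 P4 with block. The SE was the absolute log2 change over the root of F. CPM uses TMM-scaled library sizes, and log2 CPM a prior count of 2. Correlations and stratified differences used 100000 permutations, two-sided. The outcome, block and P4 slope fits of all cows were also run on simulated counts with planted changes. The interaction and subset fits were not run on them. Named genes were the members, and by correlation the 2 highest and 2 lowest identifiers for each. The members and lists were chosen with earlier results of these data known. Alternatives included DESeq2 1.42.0, limma 3.58.1 voom, RLE factors, other filters, covariates and subsets of cows.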

Additional observations from a re-analysis of the deposited data

Results flagged for a closer look

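The SPP1 value of nonpregnant replicate 3, 299.5 CPM, stood apart from the other nonpregnant cows of block 2, of which the next had 139 CPM. The gap was 0.545 of the range of the 8 cows, above the critical value of Dixon's test at 95%. This holds for untransformed CPM. On the log2 scale the gap was 0.181 of the range, below the critical value, while the lowest SPP1 value of the 10 nonpregnant cows of block 1 (10.2 CPM, next 43.04 CPM) had a gap of 0.483, above it. Chance marks about 1 in 20 groups of normal values, and 2 groups were of a size to be tested for each gene. The library of nonpregnant replicate 3 had 15397 CPM of LTF, and its 10 genes of most counts took 11.01% of its counts. Over all cows, SPP1 had r = 0.34 with the share of those 10 genes other than LTF (permutation p = 0.0278, adjusted p = 0.0889 over 16 relations; rho = 0.15, permutation p = 0.337, adjusted p = 0.581). That correlation includes this cow, and r was 0.18 once the 2 libraries most distant from the median share were left out.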

How the results depend on the processing

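The comparisons of SPP1 and LTF by outcome, block, P4 and their interactions, and the correlations of SPP1, LTF and P4 with each other, did not pass the threshold in any of the 203 combinations of result and alternative run, and 192 of the 203 kept the sign. The smallest adjusted p among these was 0.0899 (SPP1 by block in pregnant cows, an edgeR fit in which 248 of 15206 genes passed). Leaving out 1 library at a time, run for the outcome, block and P4 fits and these 3 correlations, also gave no call (smallest adjusted p = 0.0611, SPP1 with LTF without pregnant replicate 3). Correlations with library measures and components were not run under alternatives, apart from subsets given beside them. A missed threshold does not show that values did not differ. The sign turned in 11: the LTF slope on P4 was -0.37 in block 2 and -0.046 in nonpregnant cows, and its correlation -0.19 in block 2 and -0.20 in nonpregnant cows. The LTF outcome change was -0.10 in block 1. For SPP1 the P4 slope was 0.062 and the P4 correlation 0.013 in pregnant cows, the block change -0.065 in nonpregnant cows, the outcome change 0.34 in block 2 and 0.13 by permutation of log2 CPM, and the difference of P4 slopes between blocks -0.053 in limma voom. The cause was not tested.

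Those runs without 1 library kept every sign. On the log2 scale the outcome change ran from -0.39 to -0.02 for SPP1 and from 0.11 to 0.39 for LTF, the block change from 0.40 to 0.74 and from 0.37 to 0.61, and the P4 slope from -0.40 to -0.19 and from 0.21 to 0.40. The SPP1 to LTF correlation ran from 0.22 to 0.36, that of SPP1 with P4 from -0.29 to -0.12 and that of LTF with P4 from 0.05 to 0.20. Ordered by Spearman's rho, the 10 genes most like SPP1 shared 5 with those by Pearson's r, and those most like LTF shared 2. On residuals after block, P4 and outcome they shared 7 and 9. Chosen after the data were seen were the share of the 10 genes of most counts other than LTF as a covariate and library sizes without LTF. No paired analysis was possible because every cow gave 1 library and a shared replicate number links no cows. Over all genes, the P4 call count of 78 was 276 with DESeq2 and 0 with limma voom, and the block call count of 63 was 229 and 834, with neither SPP1 nor LTF among the calls.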

Other observations

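LTF lay along the main axis of variation between cows. The first principal component of log2 CPM, computed without SPP1 and LTF, held 21.7% of the variance. LTF correlated with its scores at Pearson r = 0.78 (permutation p = 1e-05, the smallest that 100000 permutations can give, adjusted p = 0.00016 over 16 relations) and Spearman rho = 0.71 (permutation p = 1e-05, adjusted p = 0.00016). Its r was 0.72 without the 2 cows farthest from the median score, 0.73 in block 2 and 0.80 in block 1. SPP1 followed the same component less closely, at r = 0.54 (permutation p = 0.00022, adjusted p = 0.00176) and rho = 0.52 (permutation p = 0.00044, adjusted p = 0.00352), with r = 0.58 without the 2 farthest cows, 0.70 in block 2 and 0.34 in block 1. The difference between these correlations was not tested. The component was built from the other tested genes, and how many of them would pass the same test was not counted. The relation is therefore not shown to be particular to SPP1 or LTF. On the other 4 components examined neither gene passed after adjustment, and the nearest was SPP1 on the third (r = -0.34, permutation p = 0.0259, adjusted p = 0.0889; rho = -0.34, permutation p = 0.0253, adjusted p = 0.135).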
